A study of Homo sapiens with 6 samples.

Results

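Cancer-testis antigens are proteins whose genes are normally active in male germ cells and silent in most adult tissues, and which come on again in many tumours. The genes described here were chosen by symbol, as members of the SSX, SPANX, MAGEA, MAGEB, MAGEC, GAGE, PAGE, XAGE and CTAG families and PRAME, after their levels in these libraries had been seen, so differences between cell lines are given as a description with no test. Of the 22091 gene IDs in each file, 73 matched. One of them, SSX2IP on chromosome 1, matched by spelling only: it encodes a centrosomal protein that binds an SSX protein and is no cancer-testis antigen, and its values are given apart. Of the other 72 genes, 71 lie on the X chromosome and PRAME lies on chromosome 22. The 72 comprise 8 SSX, 10 SPANX, 12 MAGEA, 11 MAGEB, 3 MAGEC, 13 GAGE, 6 PAGE, 5 XAGE and 3 CTAG genes and PRAME.

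RNA was sequenced from 3 established human hepatocellular carcinoma lines, MHCC97L, MHCC97H and HCCLM3, each kept untreated (control) or exposed to the ligand TGF-β1 at 2.5 ng/mL, with RNA taken at 4 h. All were grown in DMEM with serum. MHCC97L and MHCC97H are clones of the MHCC97 line with low and high metastatic potential, and HCCLM3 came from a lung metastasis that MHCC97H formed in mice. There was 1 library per line and condition, 6 in all, so a p-value for TGF-β1 rests on how far the 3 lines differ in their response, and the labels do not say whether a line's libraries came from separate cultures. Levels are in CPM, counts scaled to a common library size by TMM, and levels of different genes are compared only as a TPM-type value, which divides by exon length.

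Most of these genes cluster on the X chromosome as recent, nearly identical copies, and the DNA methylation that silences them in somatic cells is lost in many tumours. SSX proteins are nuclear and carry a KRAB-type and a repression domain, SPANX proteins belong to the sperm nuclear envelope region, and MAGE proteins share a domain that binds RING-type ubiquitin ligases such as TRIM28. GAGE, PAGE and XAGE encode small acidic proteins of poorly known role, CTAG1B encodes NY-ESO-1, and PRAME is a substrate receptor of a cullin ubiquitin ligase that can repress retinoic acid receptor signalling. Peptides of several of these proteins are presented on HLA molecules and are recognised by T cells.

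Library totals ranged from 18485041 to 23242862 expected counts, and 3 counts, the most that a count of 0 allows, equalled 0.129 to 0.162 CPM. Without molecular identifiers, the intervals given and this floor cover only the error of counting. With the lines tested together, 10 of 10 listed SMAD target genes rose. That list was made with earlier results of these data in view, so the count is no independent check. Summed over the list, the TGF-β1 libraries measured 5429 (MHCC97L), 6068 (MHCC97H) and 8994 CPM (HCCLM3). The matching control sums were 1793, 1423 and 2646 CPM, lower in each line. Of 15 listed markers of hepatocytes and hepatocellular carcinoma, 13 in MHCC97L, 13 in MHCC97H and 9 in HCCLM3 reached 1 CPM in both libraries. All 15 summed to 5997 to 9516 CPM, with KRT8 high (4293 to 6571 CPM). Only the hepatocellular carcinoma marker GPC3 was at 0 in all libraries, and ALB and SERPINA1 were lowest in HCCLM3 (ALB 1.26 and 1.43 CPM, against 8.87 to 22.9 CPM in the other lines). Of 15 male germ cell markers, 11 were at 0 throughout, DAZL, TNP1, PRM1 and PRM2 among them, and their summed level was 0.398 to 1.43 CPM, lowest in the HCCLM3 libraries. MAGEB1, also among the 11, is itself one of the family genes. Melanocyte markers summed to 2.1 to 2.54 CPM with 2 of 7 at 0, stellate cell and fibroblast markers to 11.4 to 34.4 CPM and endothelial markers to 11.7 to 41.6 CPM. Leukocyte markers summed to 113 to 251 CPM, most of it CD68, a lysosomal gene also used by other cells. The part of these markers in the results was not tested. In bulk RNA, fewer cells that use a gene and less RNA per cell cannot be told apart.

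A gene was called on in a line at 1 CPM or more in both of its libraries. By that rule 14 of the 73 genes were on in MHCC97L, 15 in MHCC97H and 13 in HCCLM3, or 19.2%, 20.5% and 17.8%, against 58.2%, 58.1% and 57.7% of all gene IDs. In all, 19 were on in at least 1 line and 54 in none. Copies with identical rows, such as SPANXA1 and SPANXA2, are counted here and below as separate genes. MAGEA3, MAGEC1, MAGEC2, SPANXA1, SPANXA2, SPANXB1, SPANXC, SSX1 and SSX2IP were on in all 3 lines. MAGEA11, SPANXD, SSX2B and SSX5 were on in HCCLM3 only, GAGE1, GAGE2A, GAGE2E, MAGEA12 and MAGEA6 in both MHCC97 lines only, and MAGEA2 in MHCC97H only. A further 22 genes had no count in any library: 5 GAGE, 2 MAGEA, 6 MAGEB, 2 PAGE, 3 SPANX, 2 XAGE and both CTAG1 genes, the NY-ESO-1 loci. On the TPM-type scale, taken row by row, SPANXC was the most abundant in HCCLM3, at a mean of 972 over its 2 libraries. SPANXA1 and SPANXA2 followed at 476 each, then SSX1 at 351, SPANXB1 at 251 and MAGEA3 at 125. In MHCC97L and MHCC97H the leading row was MAGEA3, at 105 and 117, followed in MHCC97L by SPANXC at 72.2 and in MHCC97H by GAGE2E at 38.7. SPANXA1 and SPANXA2, each at 62.8 in MHCC97L and 21.2 in MHCC97H, have identical rows whose value belongs to the pair. The order can therefore change where the pair is counted as 1 gene. It also depends on the annotated exon length, 387 bases for SPANXC and 691 for each of SPANXA1 and SPANXA2. The mean in HCCLM3 was 114 CPM for SPANXC and 100 CPM for each of that pair.

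**Figure D1:**
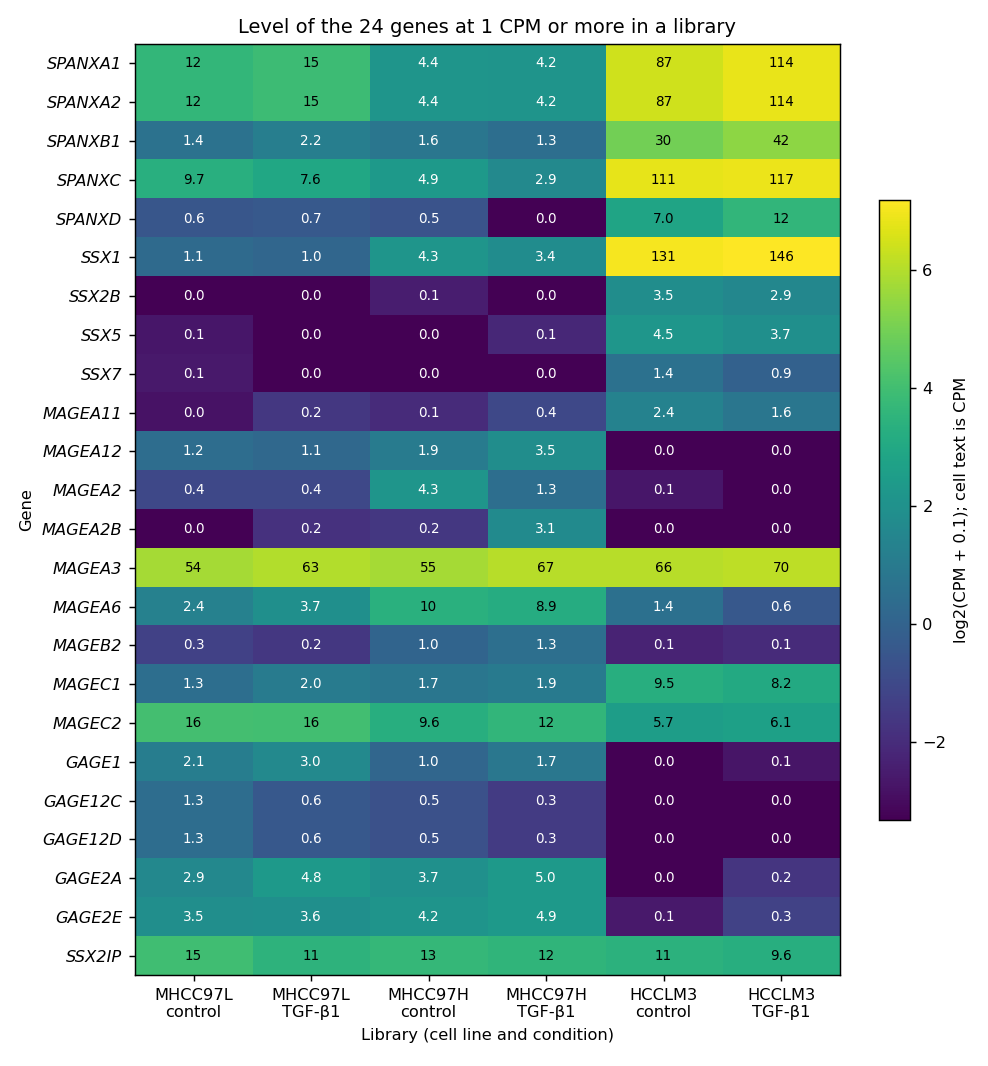
Heat map of the 24 genes that reached 1 CPM in at least 1 library (rows) in the 6 libraries (columns), with colour as log2(CPM + 0.1) and the CPM printed in each cell. SPANX and SSX rows are brightest in the 2 HCCLM3 columns, GAGE rows are dark there, and MAGEA3 is near-even across all 6.

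Both HCCLM3 libraries lay above all 4 MHCC97-line libraries for 11 of the 24 genes that reached 1 CPM in a library, each by 4-fold or more in means, and below all 4 for 11, of which 9 by 4-fold or more. Over all 13902 gene IDs at that level, 1.06% were so much higher and 1.96% so much lower. These shares are background only, since the genes had been chosen with the line differences in view. The higher set holds the identical rows SPANXA1 and SPANXA2, and the lower set the identical rows GAGE12C and GAGE12D. MAGEA3 and MAGEA2B overlapped between the lines. The 2 libraries of a line differ in treatment, so they are no replicates, and each value is given.

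SSX1 (ENSG00000126752.7, chrX:48255317-48267444, plus strand, GRCh38), the SSX gene that contributes to the SS18-SSX1 fusion of synovial sarcoma, held 78.4% to 94.6% of the SSX counts of each library. Its level was 1.13 CPM in the MHCC97L control and 1.02 CPM after TGF-β1, 4.32 and 3.36 CPM in MHCC97H, and 131 and 146 CPM in HCCLM3. Both HCCLM3 libraries thus stood far above the rest, 56.4-fold over the mean of the other 4, and MHCC97H stood 3.57-fold above MHCC97L. SSX5 measured 4.52 CPM in the HCCLM3 control and 3.66 CPM after TGF-β1, SSX2B 3.46 and 2.85 CPM, and SSX7 1.41 and 0.855 CPM. Outside HCCLM3, none of these 3 genes had more than 2.89 counts in a library. SSX3 had counts in the HCCLM3 control alone (10.76 counts, 0.571 CPM), and SSX4 and SSX4B reached at most 9.85 counts each (0.477 CPM). Summed over 8 genes, SSX stood at 1.44, 4.67 and 142 CPM in the MHCC97L, MHCC97H and HCCLM3 controls and 1.29, 3.99 and 154 CPM after TGF-β1, 51.9-fold higher in HCCLM3.

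The 4 SSX genes of highest level in HCCLM3 are shown over the stretch of 60 coding bases with the most differences from SSX1, summed over the other 3. Capitals mark bases that differ from SSX1. The stretches lie at chrX:48263849-48263908 (plus strand, exon 6), chrX:48190142-48190201 (minus, exon 7), chrX:52757921-52757980 (plus, exon 6) and chrX:52648270-52648329 (minus, exon 6), GRCh38.
SSX1: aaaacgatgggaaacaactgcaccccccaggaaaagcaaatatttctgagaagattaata
SSX5: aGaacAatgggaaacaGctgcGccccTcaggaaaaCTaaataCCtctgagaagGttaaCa
SSX2B: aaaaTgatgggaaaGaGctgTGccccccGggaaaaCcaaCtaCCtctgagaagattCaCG
SSX7: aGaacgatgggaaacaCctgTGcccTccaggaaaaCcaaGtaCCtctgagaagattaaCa
SSX5, SSX2B and SSX7 differ from SSX1 at 11, 13 and 10 of the 60 bases. Over the transcripts, 6.89% of the 50-base windows of SSX1 and 8.30% of those of SSX5 recur in another gene. For SSX7 it is 44.4%, with 41.0% in SSX2B, and for SSX2B 88.2%. The SSX2B coding sequence is identical to that of its copy SSX2.

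SPANXA1 and SPANXA2 (ENSG00000198021.7, chrX:141583674-141585011, minus strand, and ENSG00000203926.4, chrX:141589435-141590772, plus strand, GRCh38) have the same transcript sequence. The deposited files gave both the same value: 12.2 CPM in the MHCC97L control and 14.8 CPM after TGF-β1, 4.40 and 4.20 CPM in MHCC97H, and 87.0 and 114 CPM in HCCLM3. A long noncoding gene, SPANXA2-OT1, overlaps both, and without a stated strand its reads cannot be told apart from theirs. SPANXC measured 9.75 and 7.56 CPM in MHCC97L, 4.92 and 2.95 CPM in MHCC97H, and 111 and 117 CPM in HCCLM3. For both, HCCLM3 stood highest, MHCC97L next and MHCC97H lowest, with no overlap between lines; HCCLM3 was 11.3-fold (SPANXA1) and 18.1-fold (SPANXC) above the mean of the other 4 libraries. SPANXB1 measured 1.44 and 2.18 CPM in MHCC97L, 1.65 and 1.28 CPM in MHCC97H, and 30.4 and 41.7 CPM in HCCLM3, so the MHCC97 lines overlapped and HCCLM3 was 22.0-fold higher. SPANXD measured 0.598 and 0.672 CPM in MHCC97L, 0.542 and 0 CPM in MHCC97H, and 7.0 and 12 CPM in HCCLM3. Of the SPANXN genes, which form the other branch of the family, SPANXN1 reached 9.01 counts (0.436 CPM), SPANXN5 reached 4.01 counts (0.213 CPM) and the other 3 had none. Summed over 10 genes, SPANX stood at 36.2, 16.0 and 323 CPM in the MHCC97L, MHCC97H and HCCLM3 controls and 40.3, 12.8 and 399 CPM after TGF-β1, 13.7-fold higher in HCCLM3. The order of MHCC97L and MHCC97H was thus the opposite of that for SSX1.

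To show how alike the SPANX copies are, the 60 coding bases with the most differences from SPANXA1, summed over the copies, are given with differing bases in capitals. The stretches, all in exon 2, lie at chrX:141583900-141583959 (minus strand), chrX:141590487-141590546 (plus), chrX:141003431-141003490 (plus), chrX:141241679-141241738 (minus) and chrX:141697627-141697686 (minus), GRCh38.
SPANXA1: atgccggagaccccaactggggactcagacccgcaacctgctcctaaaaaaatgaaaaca
SPANXA2: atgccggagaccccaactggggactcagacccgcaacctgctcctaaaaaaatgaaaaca
SPANXB1: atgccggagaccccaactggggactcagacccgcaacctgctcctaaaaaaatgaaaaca
SPANXC: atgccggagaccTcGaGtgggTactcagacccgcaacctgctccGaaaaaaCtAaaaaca
SPANXD: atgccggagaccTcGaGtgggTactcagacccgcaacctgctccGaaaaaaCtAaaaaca
SPANXC and SPANXD share the same 7 differences here, and over 294 coding bases they differ from SPANXA1 at 10 and 9. SPANXB1 has no difference from SPANXA1 in this stretch, its own differences lying elsewhere, and is 88.1% identical over the whole coding sequence, and 21.7% of its 50-base transcript windows recur in another gene, against 100% for SPANXA1, 84.9% for SPANXC and 71.6% for SPANXD.

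MAGEA3 (ENSG00000221867.8, chrX:152698752-152702347, plus strand, GRCh38), an antigen used in vaccine trials, was the one gene of the families at a high level in every library. It measured 54.2 CPM in the MHCC97L control and 62.5 CPM after TGF-β1, 55.1 and 67.2 CPM in MHCC97H, and 66.2 and 69.6 CPM in HCCLM3, and the lines overlapped. It held 76.2% to 96.5% of the MAGEA counts. Its close copy MAGEA6 measured 2.35 and 3.66 CPM in MHCC97L, 10.2 and 8.90 CPM in MHCC97H, and 1.37 and 0.641 CPM in HCCLM3. MHCC97H was thus highest and HCCLM3 lowest, with the MHCC97-line mean 6.25-fold above HCCLM3. MAGEA12 measured 1.24 and 1.07 CPM in MHCC97L and 1.94 and 3.47 CPM in MHCC97H, and it had no count in HCCLM3, which put the MHCC97-line mean at least 25.5-fold higher against 3 counts over both HCCLM3 libraries. MAGEA2 measured 0.387 and 0.386 CPM in MHCC97L, 4.32 and 1.28 CPM in MHCC97H, and 0.056 and 0 CPM in HCCLM3. Its copy MAGEA2B measured 0 and 0.184 CPM in MHCC97L, 0.229 and 3.14 CPM in MHCC97H, and 0 in HCCLM3. MAGEA11, a coregulator of the androgen receptor that shares no 50-base window with another gene, went the other way: 0.044 and 0.222 CPM in MHCC97L, 0.143 and 0.387 CPM in MHCC97H, and 2.44 and 1.65 CPM in HCCLM3, which was 10.3-fold higher. MAGEA10 and MAGEA1 reached 13.09 and 13 counts (0.569 and 0.558 CPM).

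MAGEA3 and MAGEA6 have coding sequences of 945 bases that differ at 18. The 60 bases with the most differences lie at chrX:152701405-152701464 (plus strand) and chrX:152767019-152767078 (minus strand), in exon 3 of each, GRCh38, and hold 4 of the 18, in capitals.
MAGEA3: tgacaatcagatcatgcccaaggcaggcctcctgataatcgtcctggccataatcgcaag
MAGEA6: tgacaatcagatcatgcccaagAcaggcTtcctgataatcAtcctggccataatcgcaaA
Of the 50-base transcript windows, 56.5% of those of MAGEA3 and 53.9% of those of MAGEA6 recur in another gene, so part of the reads of either gene can be assigned to the other.

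MAGEC2, a partner of TRIM28, measured 16.2 and 15.8 CPM in MHCC97L, 9.58 and 11.9 CPM in MHCC97H, and 5.68 and 6.15 CPM in HCCLM3, with no overlap between lines and a 2.26-fold higher MHCC97-line mean. MAGEC1 measured 1.31 and 1.96 CPM in MHCC97L, 1.67 and 1.93 CPM in MHCC97H, and 9.45 and 8.23 CPM in HCCLM3, 5.16-fold higher there. These neighbours thus differed in opposite directions, and their family sum was within 11.2 to 17.8 CPM everywhere. Neither had a non-whole value in any library. MAGEC3 had at most 1 count. Of the 11 MAGEB genes only MAGEB2 reached 1 CPM: 0.305 and 0.222 CPM in MHCC97L, 0.953 and 1.33 CPM in MHCC97H, and 0.106 and 0.145 CPM (2 and 3 counts) in HCCLM3. MAGEB17 reached 11 counts (0.489 CPM) and MAGEB10 8.87 counts (0.394 CPM).

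The GAGE genes were measured in the MHCC97 lines and nearly absent from HCCLM3. GAGE2E measured 3.54 and 3.62 CPM in MHCC97L, 4.23 and 4.91 CPM in MHCC97H, and 0.063 and 0.324 CPM in HCCLM3. GAGE2A measured 2.91 and 4.83 CPM in MHCC97L, 3.72 and 5.02 CPM in MHCC97H, and 0 and 0.212 CPM in HCCLM3. GAGE1, which overlaps GAGE2A in the annotation, measured 2.1 and 2.97 CPM in MHCC97L, 1.02 and 1.68 CPM in MHCC97H, and 0 and 0.052 CPM in HCCLM3. All 4 MHCC97-line libraries were above both HCCLM3 libraries for each of these genes. Between MHCC97L and MHCC97H, GAGE2A overlapped, GAGE2E was higher in MHCC97H and GAGE1 higher in MHCC97L. GAGE12C and GAGE12D, with the same value each, measured 1.26 and 0.634 CPM in MHCC97L and 0.508 and 0.256 CPM in MHCC97H, with no count in HCCLM3. GAGE12F and GAGE12G reached 16.65 counts each (0.793 CPM), in the MHCC97H control, and GAGE12E had 2.74 counts in the HCCLM3 control alone. Over 13 genes the sum was 11.1, 11.6 and 0.266 CPM in the MHCC97L, MHCC97H and HCCLM3 controls and 12.7, 12.1 and 0.588 CPM after TGF-β1, 27.8-fold higher in the MHCC97 lines. The remaining families stayed near the floor: CTAG2 reached 6 counts (0.286 CPM), PRAME 3 counts (0.143 CPM), XAGE2 3 counts (0.133 CPM), and PAGE1 and PAGE2B 2 counts each (0.0859 CPM).

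**Figure D2:**
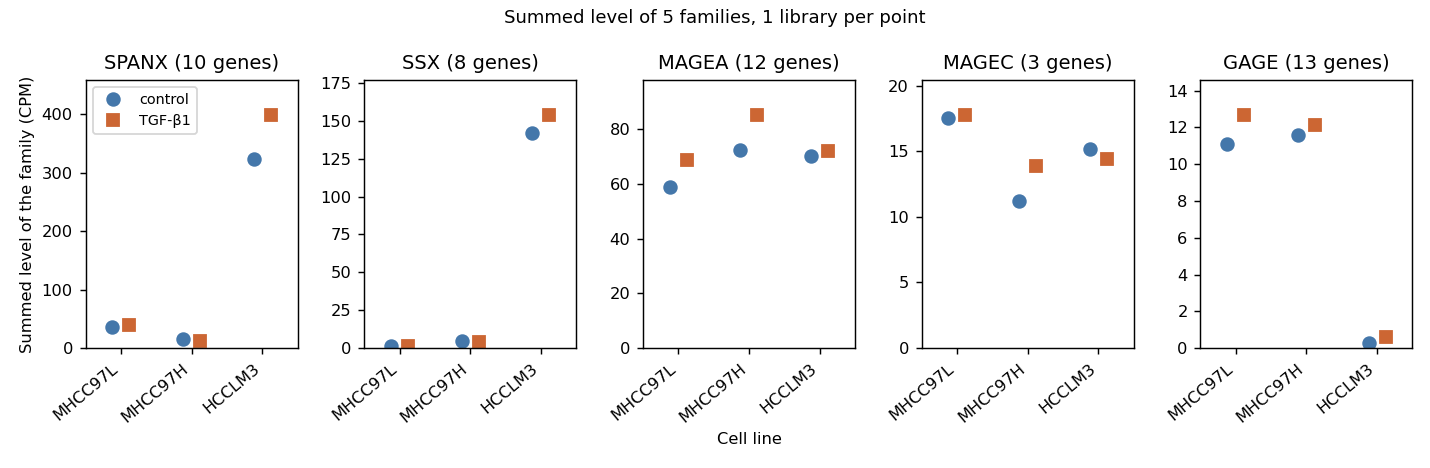
Summed level in CPM (y axis, from 0, a scale of its own in each panel) of 5 families by line (x axis), with 1 point per library, circles for control and squares for TGF-β1. SPANX and SSX are high in HCCLM3 (up to 399 and 154 CPM), GAGE is near 0 there, and the MAGEA and MAGEC sums lie close together in the 3 lines.

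Summed over the 72 genes without SSX2IP, the families took 126, 118 and 552 CPM in the MHCC97L, MHCC97H and HCCLM3 controls and 142, 130 and 641 CPM after TGF-β1, so HCCLM3 held 4.62-fold more. SPANX and SSX made up the gap. The MAGEA sum was 58.9 to 85.3 CPM and 1.0-fold in HCCLM3 relative to the other lines, and the MAGEC sum 0.980-fold. SSX2IP was lowest in HCCLM3, by less than 4-fold: 15.3 and 11.2 CPM in MHCC97L, 12.9 and 11.6 CPM in MHCC97H, and 10.8 and 9.59 CPM in HCCLM3.

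Genes of opposite direction fell in the same groups on the X chromosome, though not always close together. SSX1 ends at chrX:48267444 and GAGE2E starts at chrX:49341192. Grouping the 71 X-linked genes wherever neighbours were within 1 Mb, the group at chrX:48186220-49833973 held SSX1 and SSX5, higher in HCCLM3, and GAGE1, GAGE2A and GAGE2E, lower there. The group at chrX:141002591-143721423 held the SPANX genes and MAGEC1, higher, and MAGEC2, lower. Neighbours were counted around the 5 groups, of 13, that held a gene on in a line. Of 59 other genes within 500 kb of these groups and at 1 CPM or more in a library, 2 were 4-fold or more higher in HCCLM3 and 4 lower, and their median ratio was 0.959. The higher ones were SLC38A5, an amino acid transporter near SSX1 (4.61, 19.9 and 79.0 CPM in the MHCC97L, MHCC97H and HCCLM3 controls), and CDR1 near the SPANX genes (0.174, 0.333 and 4.30 CPM), which lies on the strand opposite LINC00632, so that reads of the pair cannot be told apart. The lower ones were PCSK1N (ratio 0.239), BGN (0.082), PNMA6A (0.052) and CSAG1. PCSK1N and BGN reached 1 CPM only in the MHCC97 lines after TGF-β1. In the HCCLM3 control and after TGF-β1 they were near the floor, PCSK1N at 0.159 and 0.194 CPM and BGN at 0.053 and 0.194 CPM. CSAG1, itself a cancer-testis antigen gene next to MAGEA12 on the opposite strand, was at 1.26 and 2.81 CPM in the MHCC97L and MHCC97H controls and 0 in both HCCLM3 libraries. Over all gene IDs at 1 CPM in a library, 1.06% were 4-fold higher and 1.96% lower by a stricter rule, which also asked for no overlap between libraries. This distance and these neighbours were chosen after the levels were seen. X-linked genes outside the families showed no shift: the median log2 difference of HCCLM3 from the other lines was 0.02 over 460 genes, against -0.004 over all 14176 genes tested.

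RefSeq promoters of 300 bases (GRCh38.p14, 250 before and 50 after the start) were found for 64 of the 73 symbols, with 82 start sites. They held a median of 11.5 CpG dinucleotides, against 14 over 35116 promoters, with 13 for genes on in a line and 11 for the rest. The ETS-type motif CGGAAG, on either strand, was in 12.2% of them and in 19.5% of all promoters. For 1 gene of each pattern, the 150 bases before the first annotated transcribed base of a family gene are given. CpG is in capitals, since this is the feature that methylation acts on, and the stretches hold 1, 6 and 7 CpG. The full 300-base promoters of SSX1, MAGEA3 and GAGE2A hold 5, 19 and 13 CpG. For GAGE2A that base is the start of the overlapping GAGE1, chrX:49589496, which precedes the start of GAGE2A itself at chrX:49589529.
SSX1, high in HCCLM3, chrX:48255167-48255316: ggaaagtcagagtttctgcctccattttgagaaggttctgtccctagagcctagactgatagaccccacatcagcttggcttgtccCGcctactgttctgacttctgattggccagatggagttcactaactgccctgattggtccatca
MAGEA3, even, chrX:152698602-152698751: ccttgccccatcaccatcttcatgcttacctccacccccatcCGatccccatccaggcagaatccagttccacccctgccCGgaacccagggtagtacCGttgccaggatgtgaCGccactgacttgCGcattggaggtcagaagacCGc
GAGE2A, nearly absent from HCCLM3, chrX:49589346-49589495: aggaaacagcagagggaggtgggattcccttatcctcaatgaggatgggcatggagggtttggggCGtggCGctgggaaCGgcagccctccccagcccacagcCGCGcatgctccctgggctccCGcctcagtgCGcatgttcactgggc
No methylation was measured in these libraries.

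Many family values were not whole numbers. A value was non-whole in at least 1 library for 31 of the 51 family genes above 0 (60.8%), against 9531 of 18615 gene IDs above 0 (51.2%). The 31 were GAGE1, GAGE12C, GAGE12D, GAGE12E, GAGE12F, GAGE12G, GAGE2A and GAGE2E; MAGEA10, MAGEA12, MAGEA2, MAGEA2B, MAGEA3, MAGEA6 and MAGEB10; SPANXA1, SPANXA2, SPANXB1, SPANXC, SPANXD, SPANXN1 and SPANXN5; all 8 SSX genes; and PRAME. In 5 cases a row with non-whole values was the same as another in all 6 libraries: SPANXA1 and SPANXA2, SSX4 and SSX4B, GAGE12C and GAGE12D, GAGE12F and GAGE12G, and PRAME and ENSG00000275013.4, an ID with no symbol. The first 4 pairs have identical coding sequences, so each such value belongs to a pair rather than to a gene. Rows of small whole counts also equalled rows of other gene IDs for MAGEA8, MAGEA9B, MAGEB18, MAGEB6, MAGEC3, PAGE1, PAGE2B, PAGE3, PAGE5, XAGE1B and XAGE3, none of which had more than 3 counts in a library. Of the 31 genes, 30 had a 50-base transcript window that recurs in another gene. The exception was PRAME, but the ID with an equal row had no entry in the annotation, so sharing between them could not be found. The median share of recurring windows over the 31 genes was 84.9%. For MAGEA10 and MAGEB10 that share was 1.92% and 2.15%, with the most from genes outside the families. Of the 20 genes with whole values, 10 had one, with a median share of 0.167%.

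**Figure D3:**
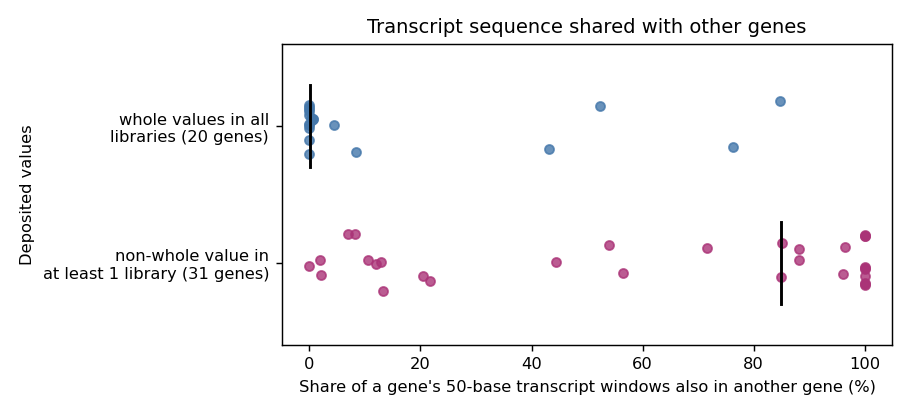
Share of each gene's 50-base transcript windows that recur in another gene (x axis, percent) for the 20 family genes with whole values and the 31 with a non-whole value, 1 point per gene, spread vertically only to be seen, with the median as a bar. The medians are 0.167% and 84.9%, and the groups overlap, as 3 genes with whole values are above 50%.

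Some sums over copies were whole where the single values were not. To within 0.02 counts, the 10 SPANX genes summed to a whole number in 6 of 6 libraries (for example 6079.99 in the HCCLM3 control), the 8 SSX genes in 6 of 6, and MAGEA2, MAGEA2B, MAGEA3, MAGEA6 and MAGEA12 together in 6 of 6. MAGEA3 with MAGEA6 alone, and MAGEA2 with MAGEA2B alone, did so in 1 of 6, and the 13 GAGE genes in 1 of 6. All 12 MAGEA genes did so in 0 of 6, and in 6 of 6 without MAGEA10. SSX2 with SSX2B did so in 4 of 6, and SPANXC with SPANXD and GAGE2A with GAGE2E in 0 of 6. These sums were chosen after the values were seen. They bear on MHCC97H, where MAGEA2 went from 90.59 to 29.71 counts after TGF-β1 and MAGEA2B from 4.81 to 73.15, while their sum went from 95.40 to 102.86 counts, a log2 difference of -0.04 (95% counting interval -0.45 to 0.38).

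TGF-β1 left these genes without a call. In edgeR's quasi-likelihood test across the lines, with Benjamini-Hochberg adjustment over all 14176 genes tested, 2044 genes passed 0.05 (14.4%; 1103 rose and 941 fell), and of the family genes 17 of 73 passed the filter on low values and 0 were called. At an unadjusted p under 0.05 there were 6 of the 17, against 4326 of all 14176 genes tested. Without SSX2IP there were 5 of 16, and these counts hold SPANXA1 and SPANXA2, whose rows are identical, as separate genes. GAGE12C and GAGE12D, also identical, were both tested and were not among the 6. DESeq2 and limma-voom also called 0. The median log2 change of the 17 was 0.19, against -0.003 for all genes tested. The filter asks for expression in 3 libraries, and SSX5, SSX2B and MAGEA11, on in HCCLM3 alone, did not pass it and were not tested; SPANXD, also on there alone, did pass.

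Changes are given with their standard errors (SE, n = 3 lines). MAGEA3 changed by 0.19 (SE 0.073, adjusted p = 0.12, edgeR) and was higher after TGF-β1 in 3 of 3 lines. GAGE2A changed by 0.62 (SE 0.229, adjusted p = 0.106) and GAGE1 by 0.61 (SE 0.266, adjusted p = 0.151), both resting on the MHCC97 lines, since HCCLM3 had under 5 counts. SPANXA1 and SPANXA2 changed by 0.26 (SE 0.098, adjusted p = 0.114), SPANXB1 by 0.35 (SE 0.160, adjusted p = 0.173) and SPANXC by -0.22 (SE 0.142, adjusted p = 0.341). SSX1 changed by -0.02 (SE 0.119, adjusted p = 0.941), MAGEC1 by 0.06 (SE 0.189, adjusted p = 0.860) and MAGEC2 by 0.13 (SE 0.114, adjusted p = 0.501). The other tested genes ran from -1.01 (GAGE12C and GAGE12D, SE 0.488, adjusted p = 0.209) to 0.47 (MAGEA12, SE 0.321, adjusted p = 0.370, and SPANXD, SE 0.453, adjusted p = 0.549), with MAGEA6 at -0.04 and GAGE2E at 0.19. SSX2IP changed by -0.26 (SE 0.109, adjusted p = 0.144). The call depended on the lines: without both HCCLM3 libraries 4 of 19 family genes tested passed, beside 3973 of all 14344 genes tested (GAGE2A, MAGEA2, MAGEA3 and SPANXC, with changes of 0.57 for GAGE2A, 0.24 for MAGEA3 and -0.50 for SPANXC at adjusted p = 0.0408, 0.0258 and 0.0367 by edgeR), and without both MHCC97L libraries 1 of 21 did, MAGEA2, beside 611 of 14255. MAGEA2 is one of a pair whose sum hardly moved, and GAGE2A is one of the GAGE copies whose sum is given above.

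Within single lines there is no test. Among genes at 5 CPM or more in either library of a line, 0 of 6 family genes in MHCC97L, 0 of 5 in MHCC97H and 0 of 10 in HCCLM3 changed 2-fold, against 1.68%, 2.44% and 1.79% of all such genes. Their log2 changes ran from -0.45 (SSX2IP) to 0.28 (SPANXA1) in MHCC97L, from -0.19 (MAGEA6) to 0.42 (GAGE2A) in MHCC97H, and from -0.20 (MAGEC1) to 0.77 (SPANXD) in HCCLM3. In HCCLM3, where SPANX counts were highest, SPANXA1 was higher by 0.39 (95% counting interval 0.30 to 0.48), SPANXB1 by 0.46 (0.30 to 0.61) and SPANXD by 0.77 (0.46 to 1.09), while SPANXC differed by 0.08 (-0.00 to 0.17). The sum of SPANXC and SPANXD in HCCLM3 differed by 0.13 (0.05 to 0.22). Counting intervals do not cover how reads were assigned among copies. The SPANX sum there went from 6079.99 to 8246.99 counts, a log2 difference of 0.31 (0.26 to 0.35), and the SSX sum by 0.12 (0.05 to 0.19). In MHCC97H the SPANX sum went the other way, by -0.32 (-0.55 to -0.09), with SPANXC at -0.72 (-1.19 to -0.27). In MHCC97L SPANXA1 differed by 0.28 (0.05 to 0.52) and SPANXC by -0.36 (-0.66 to -0.07). MAGEA3 was higher by 0.21 (0.09 to 0.32) in MHCC97L, 0.29 (0.18 to 0.40) in MHCC97H and 0.07 (-0.04 to 0.18) in HCCLM3.

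**Figure D4:**
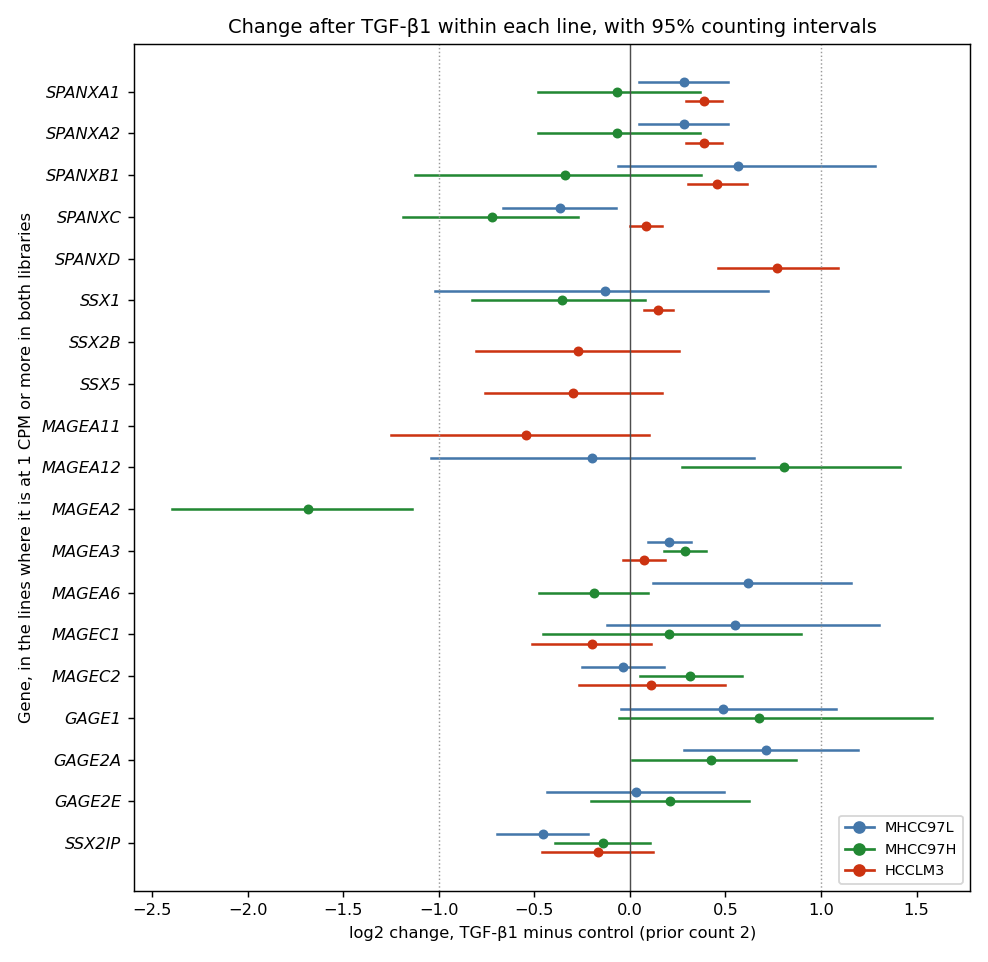
Log2 change of CPM, TGF-β1 minus control with a prior count of 2 (x axis), for each gene in the lines where it was on (y axis), with points for MHCC97L (blue), MHCC97H (green) and HCCLM3 (red), 95% counting intervals as bars and dotted lines at 2-fold. Only MAGEA2 in MHCC97H lies beyond a dotted line, at -1.69, and its copy MAGEA2B moved the other way.

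Genes listed for the biology around these families were measured in the same fit. The lists had been drawn up with earlier results of these data known. Of 34 tested genes for DNA methylation and germline gene repression, 2 rose and 4 fell, a share near the 14.4% of all genes, with a median change of -0.04. KDM5B, a histone demethylase also known as a testis-enriched gene, rose by 0.32 (SE 0.075) and MBD3, a subunit of the NuRD repressor, by 0.32 (SE 0.086). MGA, which recruits a polycomb complex that silences germline genes, fell by 0.74 on the log2 scale (SE 0.111, adjusted p = 0.00406, edgeR), from 26.3, 34.5 and 27.7 CPM in the MHCC97L, MHCC97H and HCCLM3 controls to 15.2, 17.5 and 20.4 CPM. TET3, a methylcytosine oxidase, fell by 0.61 (SE 0.106) and ATF7IP, a partner of the histone methyltransferase SETDB1, by 0.34 (SE 0.076), with SETDB1 itself also falling. DNMT1, the maintenance DNA methyltransferase, was at 209 to 232 CPM in all libraries and did not pass the test, and DNMT3L was at 0. Of 23 tested ligase and repressor partners of the MAGE, SSX and PRAME proteins, 2 rose and 0 fell: ELOB, an elongin of the PRAME ligase, by 0.30 (SE 0.079), and RARA, the receptor that PRAME represses, by 0.42 (SE 0.090). TRIM28 was at 633 to 834 CPM and did not pass. Of 5 tested type II MAGE genes, which are widely expressed, 0 rose and 0 fell (0 at an unadjusted p under 0.05), and MAGED1 was at 212 to 317 CPM and MAGED2 at 109 to 184 CPM. Of 26 tested cancer-testis antigens outside these families, 0 rose and 1 fell, CABYR, a sperm flagellum protein, by 0.43 on the log2 scale (SE 0.084, adjusted p = 0.0125, edgeR).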

How the data were processed

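The authors deposited expected counts per Ensembl gene ID, 1 file per library. Per the submitters' processing notes, hg38, Cuffdiff 1.3.0, Cufflinks 2.2.1 and TopHat2 2.1.1 are named with no role, and the counting tool, strand and kit are not given in the sources used here. Of 22091 IDs, 19574 matched a symbol. Family genes were found by symbol pattern; members and lists were chosen with earlier results of these data known. Named are genes at 1 CPM in a library, genes with non-whole values or a row equal to another's, and the highest gene of each family under 1 CPM; of other lists, up to 3 called genes in each direction.

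Counts were rounded for edgeR 4.0.16 (R 4.3.3; filterByExpr, TMM with factors 0.972 to 1.029, quasi-likelihood F test with line and treatment as terms, 2 residual degrees of freedom, Benjamini-Hochberg at 0.05), tested on simulated data. Line is the pair, per the labels; the deviations of a line's libraries correlated at 0.587, 0.456 and 0.728. DESeq2 1.42.0 and limma 3.58.1 were alternatives. Within-line changes used a prior count of 2 and 95% exact conditional binomial intervals. TPM-type values, coordinates, coding sequences and 50-base windows used GENCODE 29; promoters came from RefSeq. Python 3.11.15 made tables and plots.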

Additional observations from a re-analysis of the deposited data

Results flagged for a closer look

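For 3 genes the change was above 0 in a line and below 0 in another with both 95% counting intervals clear of 0. Other genes with opposite signs had an interval that included 0. Each line has 1 pair of libraries, and these differences between lines were not tested. MAGEA6 changed by 0.62 on the log2 scale in MHCC97L (54.07 to 82.34 counts) and by -0.99 in HCCLM3 (25.71 to 13.23 counts), and it shares 53.9% of its 50-base transcript windows with other genes. The sum of MAGEA3 and MAGEA6 changed by 0.23 (0.12 to 0.33) in MHCC97L and by 0.06 (-0.05 to 0.17) in HCCLM3. MAGEB17 changed by 1.69 in MHCC97L (2 to 11 counts) and went from 9 to 0 counts in HCCLM3, so its log2 values depend on the prior count. SPANXD changed by 0.77 in HCCLM3 (131.74 to 247.21 counts) and went from 11.37 to 0 counts in MHCC97H, where SPANXC, with which it shares sequence, went from 103.26 to 68.60 counts. The sum of SPANXC and SPANXD changed by 0.13 (0.05 to 0.22) in HCCLM3 and by -0.87 (-1.34 to -0.44) in MHCC97H.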

How the results depend on the processing

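Across all genes, the TGF-β1 count of 2044 fell to 10 with no replicate block, that is, with the pairing by line left out, and ran from 611 to 3973 when 1 line was left out (611 without MHCC97L, 980 without MHCC97H, 3973 without HCCLM3). For family genes the count of 0 became 2 of 51 with no filter (MAGEA2 and MAGEA2B) and ran from 0 to 4 with 1 line left out; it was 0 with no replicate block. The direction turned, always short of the threshold, for 6 genes. With no replicate block MAGEC1 gave -0.015, SPANXC 0.030 and SSX1 0.14. SSX1 gave 0.065 by limma-voom and 0.018 with no filter, and SPANXD gave -0.87 by DESeq2. With 1 line left out, MAGEA12 ran from -0.20 (without MHCC97H) to 0.83, MAGEA6 from -0.39 to 0.16 (without MHCC97H; 0.059 without HCCLM3), MAGEC1 from -0.062 (without MHCC97L) to 0.39, SPANXD from -0.77 (without HCCLM3) to 0.69 and SSX1 from -0.32 to 0.12 (without MHCC97H). At 5 CPM, 6 genes were on in MHCC97L and 4 in MHCC97H. With only whole-valued genes that equal no other row, 3, 3 and 4 were on in MHCC97L, MHCC97H and HCCLM3. Other scalings, 0.5 CPM, and the control or TGF-β1 library alone kept the counts within 1.5-fold. Depth limits genes under 0.162 CPM, for which absence cannot be told from a low level.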

Other observations

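Among listed cancer-testis antigens outside the families, IL13RA2 and TMEFF1 followed the order of SSX1 with HCCLM3 well above the other lines, and they and CT55 were picked after their values were seen. IL13RA2, a decoy receptor for interleukin 13, measured 9.05 CPM in the MHCC97L control and 11.3 CPM after TGF-β1, 14.6 and 19.3 CPM in MHCC97H, and 56.9 and 60.4 CPM in HCCLM3. TMEFF1, a transmembrane protein with follistatin-like domains, measured 0.290 and 0.182 CPM in MHCC97L, 0.579 and 0.651 CPM in MHCC97H, and 1.52 and 3.19 CPM in HCCLM3. ZNF165 and SPEF2 had the same order with smaller gaps: ZNF165 measured 1.39 and 1.51 CPM in MHCC97L, 1.95 and 2.02 CPM in MHCC97H, and 2.65 and 2.08 CPM in HCCLM3. CT55, on the X chromosome, had another order, with 8.74 and 9.69 CPM in MHCC97L, 2.43 and 3.01 CPM in MHCC97H, and 3.72 and 3.24 CPM in HCCLM3. Of the 73 listed antigens in the files, 21, 21 and 20 were on in MHCC97L, MHCC97H and HCCLM3, and 21 had no count in any library, among them CT83, SYCP1 and the listed genes CT45A1, CT45A5 and CT45A6. CTCFL, which encodes the germline paralogue of CTCF, was at 0.0962 to 0.194 CPM.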
